A study of Mus musculus with 4 samples.

Results

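The genes described are 10 transcription factors that build and maintain the heart muscle lineage: Gata4, Gata6, Nkx2-5, Tbx5, Tbx20, Hand1, Hand2, Hey2, Irx4 and Tead1. They are a list of names, matched through their Ensembl gene identifiers, and all 10 were found among the 21552 genes with counts. Of these, 9 had enough counts to be tested, and Hand1 did not. The samples were heart tissue of C57BL/6 mice, with no altered allele or drug named in the labels. In the infarcted group (2 mice), the left anterior descending coronary artery had been tied off permanently and tissue away from the infarct, the remote area, was taken after 7 days. The uninjured group (2 mice) had no infarct. Its samples carry the same tissue label, so the region of the uninjured heart they came from is not given beyond that. Each library comes from 1 mouse and is called a replicate of its group.

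These factors bind regulatory DNA of cardiomyocyte genes and act in combination. GATA4 and GATA6 are zinc finger proteins, NKX2-5 and IRX4 are homeodomain proteins, TBX5 and TBX20 are T-box proteins, HAND1 and HAND2 are basic helix-loop-helix proteins, HEY2 is a repressor switched on by Notch signalling, and TEAD1 binds DNA for the Hippo pathway coactivator YAP. In the adult heart several of them keep chamber identity: Irx4 and Hey2 are known as genes of the ventricle, and Tbx5 is known to be strong in the atria.

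The libraries held 35715115 to 70885393 counts, of which genes of the mitochondrial genome took 36.7% to 48.4%. Levels are given as CPM, counts scaled to a common library size by trimmed mean of M-values (TMM). All 10 cardiomyocyte markers were detected in the 4 libraries. Their summed level was 33481 to 37716 CPM in the infarcted and 54966 to 65892 CPM in the uninjured libraries. The samples thus held heart muscle, as labelled. These markers do not tell the remote area from other regions of the heart. Of these 10 markers 0 were called higher and 5 lower. Summed fibroblast markers stood at 6669 to 7081 CPM in infarcted and 1585 to 1983 CPM in uninjured libraries, with 5 of 9 called higher. The rise of that sum was mainly of the collagen genes Col1a1, Col1a2 and Col3a1 (19.4-fold, 14.5-fold and 15-fold higher). Pdgfra, Tcf21, Dcn and Gsn were not called, and Gsn had a log2 fold change of -0.51. All 9 macrophage markers were called higher. Infarcted replicate 2 stood apart in its atrial markers. The sum of the 6 was 2011 CPM there, against 295 CPM in infarcted replicate 1 and 88.8 and 49.5 CPM in the uninjured libraries. Nppa made up most of the sum in each library (1456, 294, 86.9 and 46.7 CPM in the same order). The atrial light chain gene Myl7 was at 132 CPM in infarcted replicate 2 and at 0.0800, 0.271 and 0.319 CPM in infarcted replicate 1 and uninjured replicates 1 and 2. Sln, Mybphl and Bmp10 were at 0 in infarcted replicate 1, and Bmp10 also in both uninjured libraries. The epicardial and mesothelial sum was 39.1 CPM in infarcted replicate 2 and 7.66 to 15.5 CPM in the other 3 libraries, with none of its 7 markers at 0 in any library. In such bulk tissue, fewer cells of a type and less RNA per cell cannot be told apart.

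Over all 4 libraries Tbx20 was called higher in the remote area of infarcted hearts, whereas Irx4 and Nkx2-5 were called lower. Tbx20, a T-box repressor and activator needed in adult cardiomyocytes, was 2.81-fold higher. Irx4, an Iroquois homeobox gene of ventricular muscle, was 1.74-fold lower and Nkx2-5, the NK homeobox gene of early heart specification, 1.72-fold lower. A gene counts as called where edgeR's quasi-likelihood test gave it an adjusted p (Benjamini-Hochberg, over all 13905 genes tested) below 0.05. By that rule 1 of the 9 tested factors was called higher, where 18.3% of all genes tested were, and 2 were called lower, where 14.6% of all genes tested were (33.0% in either direction). The median log2 fold change of the 9 factors was -0.11, beside 0.02 over all genes tested. These counts are close to the background shares, so the number called is not itself a result about these factors. The adjusted p in edgeR was 0.0482 for Tbx20, 0.00717 for Irx4 and 0.0159 for Nkx2-5. None of these calls held under every alternative described below.

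**Figure D1:**
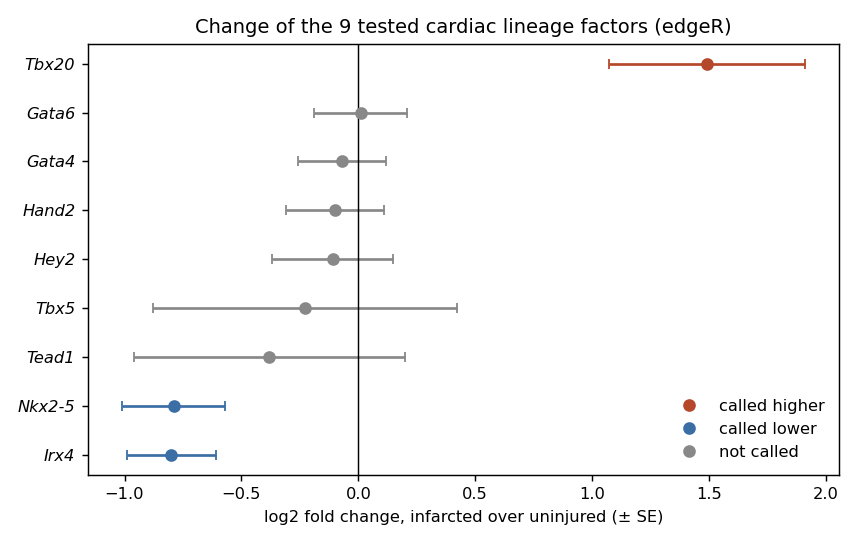
The horizontal axis gives the log2 fold change of infarcted over uninjured libraries, with bars of 1 standard error, for the 9 tested factors (2 libraries a group). Tbx20 lies at 1.49, Nkx2-5 and Irx4 lie at -0.79 and -0.80, and the bars of the 6 factors that were not called reach or cross 0.

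The mRNA levels were compared between the factors per kilobase of exon, since longer transcripts collect more reads. In the uninjured hearts the order of mean CPM per kilobase ran from Gata4 (30.0) and Nkx2-5 (25.8) through Irx4 (16.3), Hand2 (14.6), Tbx5 (6.37), Gata6 (6.27), Tbx20 (1.95), Hey2 (0.902) and Tead1 (0.641) to Hand1 (0.0120). The ranges of the 2 libraries overlapped for the neighbours Gata4 and Nkx2-5, for Irx4 and Hand2, and for Hey2 and Tead1, so these pairs have no order beyond their spread. Tbx5 and Gata6 lay close, and their order rests on the length used. Their exons together span 4675 and 6508 nucleotides, while their longest transcripts have 3942 and 3784. In the infarcted hearts Tbx20 stood at 5.49 CPM per kilobase, near Gata6 (6.31) and Tbx5 (5.43), and Irx4 (9.39) stood below Hand2 (13.6). Gata4 stood at 28.6 CPM per kilobase in infarcted hearts, above Nkx2-5 (15.0) in both libraries.

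**Figure D2:**
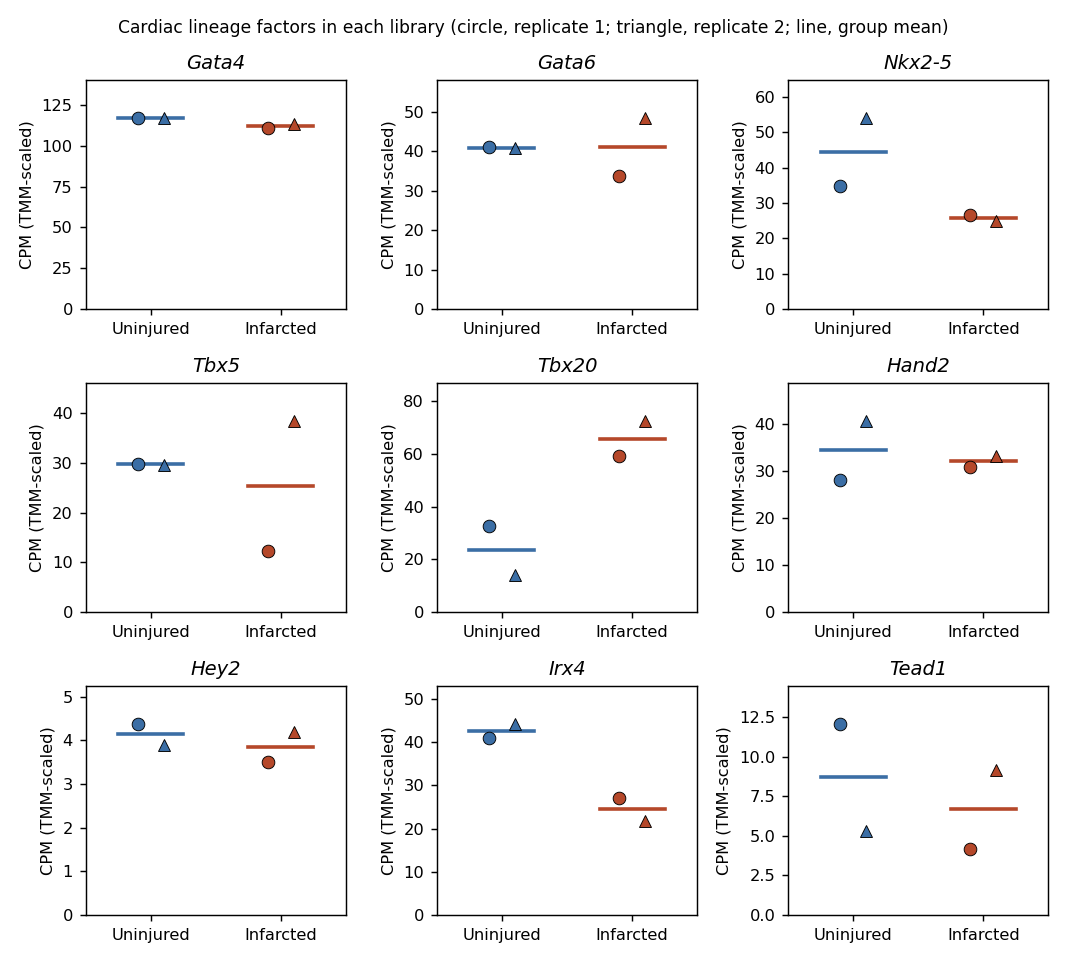
Each panel shows the CPM of 1 factor in the 2 uninjured (blue) and 2 infarcted (red) libraries, with a line at each group's mean and an axis of its own that starts at 0. The groups lie apart for Gata4, Nkx2-5, Tbx20 and Irx4, while Tbx5 and Tead1 spread widely within a group.

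Gata4, the GATA factor that cooperates with NKX2-5 and T-box proteins at heart gene promoters, was measured at 111 and 113 CPM in infarcted replicates 1 and 2, and at 117 CPM in both uninjured replicates. The groups did not overlap, yet the fitted log2 fold change was -0.07 ± 0.19 (SE, n = 2 a group) with an adjusted p of 0.813 in edgeR, and it was not called. Groups that did not overlap were seen for 4 of the 9 factors, 1 higher in infarcted hearts and 3 lower, beside 70.0% of all genes tested (36.2% higher, 33.8% lower).

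Gata6, its close relative, had 33.7 and 48.4 CPM in infarcted replicates 1 and 2 and 41.0 and 40.7 CPM in the uninjured ones. The infarcted values lay on either side of the uninjured pair. Its log2 fold change was 0.01 ± 0.20 (SE) with an adjusted p of 0.982 in edgeR. The ratio of Gata4 to Gata6 counts within a library, which does not depend on library scale, was 3.28 and 2.33 in the infarcted and 2.87 in both uninjured libraries. Its mean on the log2 scale was 1.47 ± 0.35 (SD, n = 2) against 1.52 ± 0.00, a difference of -0.05 that lies within the spread. Per kilobase Gata4 made up 74.2% to 80.4% and Gata6 14.7% to 19.1% of the mRNA of the 6 GATA genes in each library. These shares rest on the length used. The exons of Gata6 together span 6508 nucleotides and its longest transcript has 3784, against 3904 and 3400 for Gata4.

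The Gata4 transcript has a tandem splice site in its coding sequence, at which an exon starts at either of 2 acceptor sites 3 nucleotides apart. The event lies at chr14:63823426-63823595 on mm9, where the longer exon has 170 and the shorter 167 nucleotides, and both keep the reading frame. The junction is shown from GENCODE M21 transcripts (GRCm38) with an exon pair of the same lengths, with 18 bases on each side. The capitals mark the 3 bases that the longer exon adds.
Gata4 longer exon: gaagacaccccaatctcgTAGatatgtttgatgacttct
Gata4 shorter exon: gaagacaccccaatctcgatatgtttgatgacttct
The longer form took 25.5% of 55 reads in infarcted replicate 1 and 35.6% of 45 reads in infarcted replicate 2. The uninjured libraries had 48.6% of 37 reads in replicate 1 and 36.0% of 50 reads in replicate 2. Both infarcted values lay below both uninjured ones, the nearest pair by under 1 percentage point, and the 95% Wilson intervals (15.8% to 38.3%, 23.2% to 50.2%, 33.4% to 64.1% and 24.1% to 49.9%, in the same order) overlapped between groups. The difference in log2 odds was -0.72, with an unadjusted p of 0.182 and an adjusted p of 0.927 in edgeR's test of form by group. No difference was detected, and the intervals cover counting error only.

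**Figure D3:**
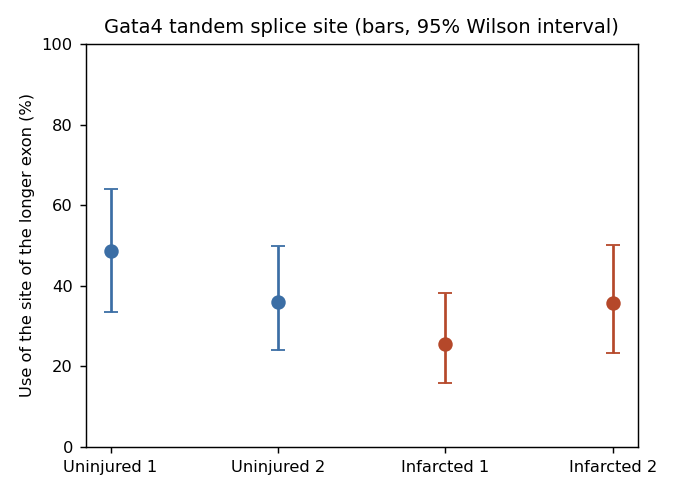
Points give the percent of junction reads that use the site of the longer Gata4 exon in each library, and bars the 95% Wilson interval. The 4 values lie between 25.5% and 48.6% and the intervals of the groups overlap.

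Elsewhere the isoforms of the factors were near fixed or too thinly covered. Of 25 events listed for 7 of the factors, 5 had enough reads for the test (at least 10 in each library and at least 5 of each form), all in Gata4 and Tbx20, and 0 were called or had an unadjusted p below 0.05. Over all events edgeR called 0 of 5490 exons and 0 of 2593 sites, with 7.03% and 5.63% at an unadjusted p below 0.05. At a second Gata4 acceptor, 96.3% to 100% of 50 to 81 reads used the site 8 nucleotides upstream of the innermost one, and the rest a farther site, which were the 2 tested events there (adjusted p 0.982 for both in edgeR). No read used the innermost site, so these 2 events mirror each other and amount to 1 test. For Tbx20, 92.9% to 100% of 12 to 69 reads used the outer of a pair of acceptors, with an adjusted p of 0.995. A Tbx20 exon of 110 nucleotides had 92.9% to 100% inclusion over 27 to 123 reads, with an adjusted p of 0.989. Irx4 used 1 of a pair of donor sites in all of 34 to 78 reads a library, and Gata6 used 1 of a pair of acceptors in all of 62 to 81 reads. A 63-nucleotide exon of Tead1 had inclusion of 45.5% and 0% in the infarcted and 25% and 11.1% in the uninjured replicates, but over no more than 8 reads in each, so nothing was compared.

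Nkx2-5 was measured at 26.7 and 24.8 CPM in infarcted replicates 1 and 2, whereas uninjured replicates 1 and 2 had 34.8 and 54.0 CPM. Both infarcted libraries were below both uninjured ones, and the uninjured pair itself differed 1.55-fold. The means were 25.8 ± 1.36 CPM (SD, n = 2) and 44.4 ± 13.5 CPM, and the log2 fold change was -0.79 ± 0.22 (SE) with an adjusted p of 0.0159 in edgeR. Without uninjured replicate 2 it was -0.44 with an adjusted p of 0.135, and without infarcted replicate 2 the adjusted p was 0.0616. Over the 17 alternatives the adjusted p ran from 0.000416 to 0.351 and 10 kept the call.

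Nkx2-5 has a short transcript, of at most 1525 nucleotides, and short transcripts moved as a class. Over the 2708 tested genes of 2000 nucleotides or shorter the median log2 difference was -0.30 between uninjured replicates 1 and 2 and -0.35 between infarcted and uninjured hearts. With the trend with transcript length removed, the log2 fold change of Nkx2-5 was -0.47 with an adjusted p of 0.0640, and with the trend with GC content removed it was -0.51 with an adjusted p of 0.0325. The part of transcript length in the result was otherwise not tested.

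Tbx5, the T-box factor of the atria, the left ventricle and the conduction system, had 12.3 CPM in infarcted replicate 1 and 38.5 CPM in infarcted replicate 2, against 29.9 and 29.7 CPM in the uninjured replicates. The 2 infarcted libraries lay on opposite sides of an uninjured pair that nearly coincided, and they differed 3.14-fold. The log2 fold change was -0.23 ± 0.65 (SE) with an adjusted p of 0.826 in edgeR. Without infarcted replicate 2, the library with the high atrial markers, it was -1.31 with an adjusted p of 0.000830, and without infarcted replicate 1 it was 0.29 with an adjusted p of 0.530. Over the 17 alternatives the adjusted p of Tbx5 ran from 0.000765 to 0.953. The part of atrial tissue in the Tbx5 level was not tested.

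Tbx20 had 59.1 and 72.5 CPM in infarcted replicates 1 and 2, whereas uninjured replicates 1 and 2 had 32.7 and 14.1 CPM. Both infarcted libraries were above both uninjured ones, which themselves differed 2.31-fold. The means were 65.8 ± 9.47 CPM (SD, n = 2) in infarcted and 23.4 ± 13.1 CPM in uninjured hearts, and the log2 fold change was 1.49 ± 0.42 (SE) with an adjusted p of 0.0482 in edgeR, close to the threshold. Without infarcted replicate 2 it was 1.30, with an adjusted p of 0.000128 in edgeR and 0.433 in DESeq2. Each fit that leaves out a library has 1 library in that group, which is assumed to vary like the other group's pair. Without uninjured replicate 2, the lowest library, it was 1.0 with an adjusted p of 0.0672, in a fit that called 0.714% of all genes higher. The call was also lost with no filter on low counts, with mitochondrially encoded genes left out, and in DESeq2 without infarcted replicate 1 (adjusted p 0.303). Over the 17 alternatives the adjusted p ran from 5.42e-14 to 0.433 and 12 kept the call.

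The longest Tbx20 transcript has 9091 nucleotides, and long transcripts also moved as a class. Over the 802 tested genes above 8000 nucleotides the median log2 difference was 0.25 between uninjured replicates 1 and 2 and 0.23 between infarcted and uninjured hearts. With the length trend removed the log2 fold change of Tbx20 was 1.26 with an adjusted p of 0.0196. Fibroblast and macrophage marker sums were higher in the same libraries, the fibroblast sum mainly through collagen genes. The part of these cell types in the Tbx20 result was not tested.

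The proportion of the T-box pair, formed from the same counts as above, lay apart between the groups. Library scale cancels in this ratio, but the trend with transcript length does not. How often other gene pairs lie apart was not counted. Counts of Tbx5 per count of Tbx20 were 0.207 and 0.531 in the infarcted libraries (replicate 1 first) and 0.914 and 2.10 in the uninjured ones. The groups did not overlap, and the mean log2 ratios were -1.59 ± 0.96 (SD, n = 2) and 0.47 ± 0.85, a difference of -2.06 for which no test was made. Leaving out each library in turn gave differences from -2.74 to -1.38. Per kilobase, Tbx20 held 35.9% and 29.5% of the mRNA of the 6 T-box genes measured in infarcted replicates 1 and 2, whereas uninjured replicates 1 and 2 had 18.7% and 9.13%.

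Irx4, which represses atrial genes in the ventricle, was measured at 27.2 and 21.8 CPM in infarcted replicates 1 and 2 and at 40.9 and 44.3 CPM in the uninjured replicates. The groups lay well apart and each pair was close, differing 1.25-fold and 1.08-fold. The means were 24.5 ± 3.83 CPM (SD, n = 2) and 42.6 ± 2.39 CPM, and the log2 fold change was -0.80 ± 0.19 (SE) with an adjusted p of 0.00717 in edgeR. Without infarcted replicate 2, where Irx4 was lowest and atrial markers highest, it was -0.67 with an adjusted p of 0.101, and without uninjured replicate 2 it was -0.75 with an adjusted p of 0.0922. Over the 17 alternatives the adjusted p ran from 0.000833 to 0.128 and 12 kept the call. The fall of Irx4 and Nkx2-5 ran beside that of some cardiomyocyte markers. The median log2 fold change of the 10 markers was -0.71 and 5 were called lower. The others were not called, among them Ttn (0.17), Actn2 (-0.02) and Ryr2 (-0.20). The part of cardiomyocyte content in the fall of Irx4 and Nkx2-5 was not tested.

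With library totals as the scale in place of TMM, the median log2 fold change of all genes shifted from 0.02 to 0.36. On that scale Irx4 was at -0.46 (adjusted p 0.0775) and Nkx2-5 at -0.44 (adjusted p 0.131), which are -0.82 and -0.80 relative to the shifted median. Tbx20 was at 1.84, or 1.48 relative to that median, with an adjusted p of 0.0316. Thus the direction of the 3 called factors was the same on both scales, while the calls of Irx4 and Nkx2-5 were not kept on library totals.

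Hey2, the Notch-responsive repressor of the compact ventricular wall, was low and even, at 3.5 and 4.2 CPM in infarcted and 4.38 and 3.90 CPM in uninjured replicates. The groups overlapped, and the log2 fold change was -0.11 ± 0.26 (SE) with an adjusted p of 0.789 in edgeR. Per kilobase it was the least of the 3 HEY genes in each library, at 6.19% to 10.6% of their mRNA, below Hey1 and Heyl.

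Hand2, a partner of GATA4 at heart enhancers, had 30.8 and 33.2 CPM in infarcted and 28.1 and 40.6 CPM in uninjured replicates. The infarcted values lay between the uninjured ones, and the log2 fold change was -0.10 ± 0.21 (SE) with an adjusted p of 0.738 in edgeR. Exons of an antisense gene, Hand2os1, overlap those of Hand2, as an antisense gene (1010001N08Rik) overlaps Gata6, and without a stated strand their reads cannot be told apart. Hand1, known from the embryonic left ventricle, had 0 and 1 counts in infarcted and 0 and 3 counts in uninjured replicates, at or under the limit of 3 counts that a count of 0 allows. No fold change of Hand1 and no ratio of Hand2 to Hand1 was therefore formed.

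Tead1, a TEAD factor of heart muscle, had 4.2 and 9.20 CPM in infarcted replicates 1 and 2, whereas uninjured replicates 1 and 2 had 12.1 and 5.32 CPM. The groups overlapped, with more than 2-fold between the libraries of each (2.19-fold and 2.27-fold). The log2 fold change was -0.38 ± 0.58 (SE) with an adjusted p of 0.671 in edgeR. Without infarcted replicate 2 it was -1.08 with an adjusted p of 0.0151, and without uninjured replicate 1 it was 0.32 with an adjusted p of 0.669, in a range of adjusted p from 0.0151 to 0.996 over the 17 alternatives. Its longest transcript has 9964 nucleotides, so it belongs to the long class described for Tbx20.

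**Figure D4:**
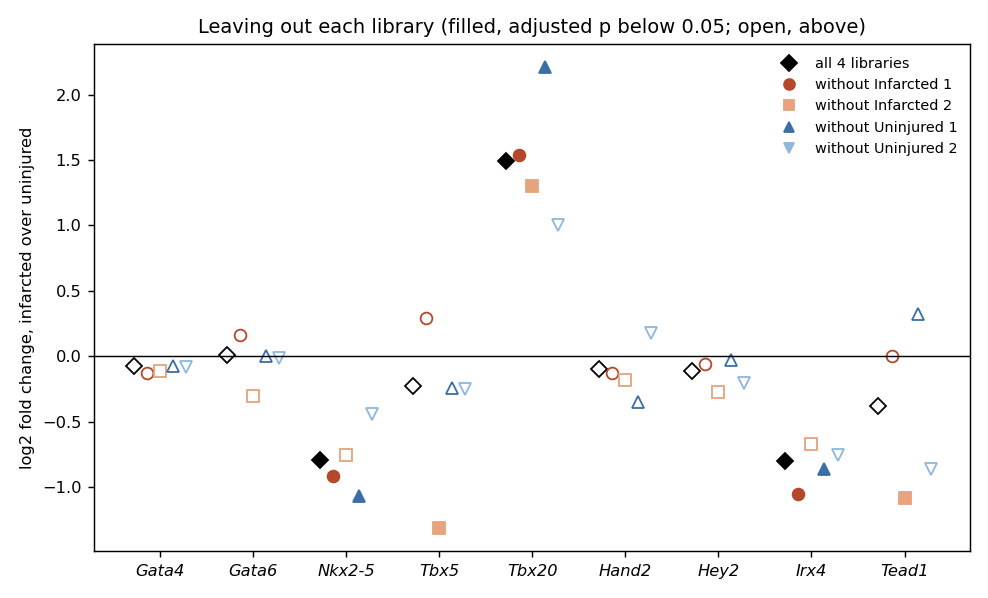
The vertical axis gives the log2 fold change of infarcted over uninjured libraries for each tested factor with all 4 libraries and without each one in turn, and filled symbols have an adjusted p below 0.05. Tbx20 stays between 1.0 and 2.21 and Irx4 between -1.05 and -0.67, whereas Tbx5 runs from -1.31 to 0.29 and Tead1 from -1.08 to 0.32.

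The removal of infarcted replicate 2 exchanged the factors called lower, in a fit whose spread among libraries comes from the uninjured pair alone (29.9 and 29.7 CPM for Tbx5). Tbx5 and Tead1 were then called and Irx4 and Nkx2-5 were not, with 0 shared, where 8.83% of all genes were called lower, and Tbx20 was still called higher, where 13.7% were. Without uninjured replicate 2 edgeR called 0 of the 9 factors in either direction, while 3 of them had an unadjusted p under 0.05. In DESeq2 Tbx20 alone was called there. Over all genes the edgeR fit without that library called 0.714% higher and 0.0560% lower, and DESeq2 called 1157 genes higher and 602 lower of 14285. DESeq2 on all 4 libraries called the same 3 factors as edgeR, Tbx20 higher and Irx4 and Nkx2-5 lower, where it called 17.0% of all genes higher and 14.9% lower.

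The sequences just upstream of the factor called higher and of the factor called lower with the smallest p are shown, since these 2 moved in opposite directions. They come from RefSeq on GRCm38.p6, whose promoter table matched 5 of the 10 factors. For Tbx20 the 250 bases before the start, on the minus strand at chr9:24774304-24774553, hold no annotated exon. For Irx4 the first 232 of those 250 bases, on the plus strand at chr13:73260247-73260478, lie outside exons. Capitals would mark a match to one of 5 motifs, and there was none.
Tbx20: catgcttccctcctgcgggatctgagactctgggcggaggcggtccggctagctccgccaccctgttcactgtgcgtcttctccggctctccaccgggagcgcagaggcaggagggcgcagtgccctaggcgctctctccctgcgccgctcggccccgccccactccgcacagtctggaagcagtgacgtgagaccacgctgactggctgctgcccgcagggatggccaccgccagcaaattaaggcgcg
Irx4: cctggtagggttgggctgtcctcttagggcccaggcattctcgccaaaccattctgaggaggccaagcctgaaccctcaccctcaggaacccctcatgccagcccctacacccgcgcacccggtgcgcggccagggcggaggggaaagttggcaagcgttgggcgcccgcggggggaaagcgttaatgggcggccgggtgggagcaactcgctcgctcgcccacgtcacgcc
The motifs were searched on both strands of the 250 bases: AGATAA for GATA factors, AAGTG for NKX2-5, AGGTGT for T-box factors, CANNTG for the E-box of HAND and HEY factors, and GGAATG for TEAD factors. CANNTG can overlap AGGTGT. Of 32851 promoters of the same length, 9.99% held AGATAA, 40.7% AAGTG, 11.8% AGGTGT, 66.2% CANNTG and 12.6% GGAATG. The GC content was 68.8% in both windows. No match means only that these letters are not in these windows.

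Genes with the pattern nearest to Tbx20 and to Irx4 over the 4 libraries were sought among 9510 genes with a mean of at least 5 CPM, by Euclidean distance of log2 CPM after each gene's mean was subtracted. For Tbx20 these were Tor1aip2 (distance 0.168), Ston1 (0.3) and Best3 (0.301). Tor1aip2 had 9.60 and 12.3 CPM in infarcted and 5.2 and 2.61 CPM in uninjured replicates. For Irx4 they were Tmem126b (0.0224), Tmem218 (0.0417) and Rap1gap2 (0.0434). Rap1gap2 had 56.4 and 44.2 CPM in infarcted and 81.9 and 88.4 CPM in uninjured replicates. With 4 libraries such nearness is a description.

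Among 19 other genes of the same DNA-binding families, 15 were tested, 3 were called higher and 2 lower, beside 18.3% and 14.6% of all genes tested, with a median log2 fold change of -0.07. These counts are near the background. Tead4, Tead2 and Tbx18 were called higher and Irx5 and Gata3 lower, and all 5 calls were lost without uninjured replicate 2. The call on Tbx18 was also lost without infarcted replicate 2 (adjusted p 0.0599) and that on Irx5 with library totals as the scale (adjusted p 0.0909). Tead4 was at 3.46 and 3.62 CPM in infarcted and 1.77 and 1.27 CPM in uninjured replicates (log2 fold change 1.22 ± 0.32 SE, adjusted p 0.0103 in edgeR), and Tead2 at 8.64 and 6.06 against 3.53 and 4.28 CPM (0.91 ± 0.26, adjusted p 0.0170). Tbx18, a T-box gene of epicardium and mural cells, was at 6.5 and 6.70 against 4.32 and 2.82 CPM (0.89 ± 0.27, adjusted p 0.0220).

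Irx5, an Iroquois gene that sets the repolarisation gradient across the ventricular wall, fell with Irx4. It had 5.28 and 6.10 CPM in infarcted and 11 and 10 CPM in uninjured replicates, a log2 fold change of -0.88 ± 0.22 (SE) with an adjusted p of 0.00880 in edgeR. Irx3 was at 13.4 and 22.6 against 27.6 and 27.2 CPM and was not called (adjusted p 0.0685). Irx4 nonetheless kept 42.9% to 50.6% of the per-kilobase mRNA of the 6 Iroquois genes in each library. Gata3, at 0.0800 and 0.215 against 0.522 and 0.764 CPM, was also called lower (-2.15 ± 0.58, adjusted p 0.0127), at 4 to 48 counts a library. Per kilobase, Tead1 made up 5.94% and 12.3% of TEAD mRNA in infarcted and 23.3% and 11.6% in uninjured replicates, and these ranges overlapped. Tead3 held the largest share in each library, at 41% to 51.4%, and was not called.

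Of the cofactors and partner factors 22 of 23 were tested, 5 were called higher and 1 lower, beside 18.3% and 14.6% of all genes tested, with a median log2 fold change of 0.22. With library totals as the scale 11 were called higher. Hopx, an atypical homeodomain protein that restrains SRF, was at 57.1 and 58.5 CPM in infarcted and 162 and 179 CPM in uninjured replicates. The groups lay far apart, at a log2 fold change of -1.56 ± 0.19 (SE) and an adjusted p of 0.000111 in edgeR. With the length trend removed, the log2 fold change of Hopx was -1.18 and the call was kept. The call on Hopx held without uninjured replicate 2 (adjusted p 0.0472), a fit in which the other 5 were lost.

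Those that rose were the TEAD cofactors Vgll2 and Vgll3, the acetyltransferase gene Crebbp, the basic helix-loop-helix gene Twist1 and the SRF coactivator gene Mrtfa. Vgll3 was at 7.66 and 8.82 CPM in infarcted and 3.30 and 2.85 CPM in uninjured replicates (log2 fold change 1.42, adjusted p 0.000936 in edgeR). Twist1 was at 2.40 and 2.26 against 0.710 and 0.812 CPM (1.61, adjusted p 0.00433). Crebbp was at 28.1 and 31.5 against 17.2 and 13.9 CPM (0.94, adjusted p 0.00369), Mrtfa at 18 and 13.9 against 9.04 and 9.14 CPM (0.81, adjusted p 0.0115), and Vgll2 had 38 and 35 against 10 and 10 counts (2.11, adjusted p 0.00584). The main coactivators of TEAD factors were not called: Yap1 was at 71.7 and 75.8 against 78.4 and 76.0 CPM (adjusted p 0.812), and Wwtr1 at 86.4 and 83.7 against 68.4 and 53.1 CPM (adjusted p 0.0711).

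Of 11 genes known as targets of TEAD factors with YAP, 7 were called higher and 0 lower, beside 18.3% and 14.6% of all genes tested. Their median log2 fold change was 1.11, and all 11 were above 0. Ccn1 (0.10), Amotl2 (0.20), Ajuba (0.27) and Crim1 (0.35) were not called. Ccn2, a secreted matrix regulator, was at 485 and 797 CPM in infarcted and 40.5 and 33.4 CPM in uninjured replicates, a 17.4-fold difference. Myof was 5.52-fold, Tgfb2 4.29-fold and Axl 2.51-fold higher. Several of these genes are also expressed by fibroblasts, whose marker sum was higher in the same libraries, mainly through collagen genes. The part of fibroblasts in these counts was not tested. Without uninjured replicate 2, 1 of the 11 (Myof) was called.

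Of 9 genes of the Notch pathway, which lies upstream of the HEY factors, 4 were called higher and 0 lower, beside 18.3% and 14.6% of all genes tested, with a median log2 fold change of 0.43. Notch1 was at 70.5 and 55.8 CPM in infarcted and 39.5 and 37.9 CPM in uninjured replicates (0.71, adjusted p 0.0126 in edgeR). The receptor genes Notch2 and Notch3 and the ligand gene Jag1 were the other three, 1.88-fold, 1.66-fold and 1.57-fold higher. With the length trend removed 1 of the 4 calls (Notch2) remained, without infarcted replicate 1 or uninjured replicate 1 the count called higher was 1, and without uninjured replicate 2 it was 0. Hey2 itself was not called in any of the 17 alternatives.

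Among 16 cardiomyocyte genes known as targets of GATA, NKX2-5 and T-box factors 15 were tested, 2 were called higher and 4 lower, beside 18.3% and 14.6% of all genes tested, with a median log2 fold change of -0.18. The counts were 0 and 0 without uninjured replicate 2, and with library totals as the scale 2 were called lower. Nppb, the natriuretic peptide B gene, was at 395 and 508 CPM in infarcted and 118 and 52.2 CPM in uninjured replicates, 5.32-fold higher, and Slc8a1, the sodium-calcium exchanger gene, was 2.08-fold higher. Tnni3, the cardiac troponin I gene, was at 1959 and 1789 against 3938 and 6416 CPM, 2.76-fold lower, and Myl2, the ventricular light chain gene, was 2.59-fold lower. Tnnt2 (1.74-fold) and Atp2a2 (1.78-fold) were also called lower. With the length trend removed, Tnni3 moved from a log2 fold change of -1.47 to -0.92 and Myl2 from -1.37 to -0.82. Slc8a1 moved from 1.06 to 0.83, while Nppb (2.41 to 2.88), Tnnt2 (-0.80 to -0.82) and Atp2a2 (-0.83 to -1.07) grew in size. All of these kept their calls in that fit. Nppa, at 294 and 1456 against 86.9 and 46.7 CPM, had groups that did not overlap but was not called (adjusted p 0.151 in edgeR). Its highest value was in infarcted replicate 2, the library of high atrial markers, but Nppa is itself among those markers. Tnnc1 had at most 4 counts in a library, beside 219813 to 607435 for Tnnt2, and was not tested. Why so few of its reads were counted was not tested, so the counts are not read as absent expression.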

How the data were processed

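Polyadenylated RNA of 4 mouse heart libraries was sequenced as single-end reads, per the labels' protocols. The authors deposited raw, unnormalized counts for each Ensembl gene and the percent use of exons and splice sites with corrected reads per event, both deposited for the same libraries. The build mm9 is named in the submitters' processing notes. The aligner, the counter and the strand setting were not given in the sources used here. Groups came from the labels. The p-values rest on the spread between the 2 libraries of a group, pooled in part with the spread of all genes. Separate mice are given for these libraries but no batch. Where a library is left out, the spread comes from the other group's pair and from all genes.

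Gene symbols came from GENCODE M21 through the Ensembl identifiers (20450 genes matched). Counts were tested in edgeR 4.0.16 (TMM, filterByExpr, robust quasi-likelihood F-test, R 4.3.3), which left 13905 genes, 2 residual degrees of freedom and a common biological coefficient of variation of 19.3%. Splicing used edgeR's form-by-group interaction with a term for each library. Levels per kilobase divide by the union of GENCODE exons, which may differ from the authors' gene models. DESeq2 1.42.0 and limma 3.58.1 (voom, and the logit of splicing reads with 0.5 added) were alternatives, besides other scalings, filters, trend corrections, the replicate block and each library left out. The scripts were tested on simulated data.

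The factors and gene lists were chosen with earlier results of these data known. All 10 factors are named, and of the other lists the genes with the smallest p (up to 4), all called relatives and partners, the 3 nearest patterns and the tested splicing events. Other genes named (Irx3, Tead3, Yap1, Wwtr1, Ccn1, Amotl2, Ajuba, Crim1, Tnnt2, Atp2a2 and Tnnc1, and the markers beyond these) were chosen after their values were seen.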

Additional observations from a re-analysis of the deposited data

How the results depend on the processing

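With all 4 libraries, 1 factor was called higher and 2 lower. Factors called higher fell to 0 with no filter on low counts and with mitochondrially encoded genes left out (Tbx20 at adjusted p 0.0993 and 0.0646). Factors called lower fell to 0 with library totals as the scale and to 1 with the length trend removed. Leaving out each library in edgeR gave 0 to 1 higher and 0 to 2 lower, and in DESeq2 (added after the data were seen) also 0 to 1 higher and 0 to 2 lower, the lowest counts coming without uninjured replicate 2 in edgeR. The cause was not tested. RLE factors, DESeq2, limma-voom and the GC correction gave the same 3 calls.

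The log2 fold changes that turned sign were of factors that were not called. With library totals they were 0.28 for Gata4, 0.14 for Tbx5, 0.25 for Hand2 and 0.24 for Hey2. Gata6 was at -0.01 with RLE factors, no filter and DESeq2, -0.02 in limma-voom and -0.05 with the length trend removed. It ran from -0.30 to 0.16 with each library left out in edgeR, and was at -0.28 and -0.02 in DESeq2 without infarcted replicate 2 and without either uninjured library. Hand2 was at 0.04 with the length trend removed. With each library left out in edgeR, Hand2 ran from -0.35 to 0.18, Tbx5 from -1.31 to 0.29 and Tead1 from -1.08 to 0.32. In DESeq2 Hand2 was at 0.16 without uninjured replicate 2, Tbx5 at 0.33 without infarcted replicate 1, and Tead1 at 0.30 without uninjured replicate 1 and 0.03 without infarcted replicate 1.

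The groups share replicate numbers. Deviations of same-numbered libraries correlated at 0.108 over 13905 genes. With 2 pairs this value cannot show whether same-numbered libraries share more than a number. With the replicate block the same factors were called (1 higher, 2 lower), Gata6 was at -0.01, and over all genes 2950 were called higher and 2340 lower, against 2546 and 2037 without it. No member splicing event was called under any alternative run. Without infarcted replicate 2 no exon of the factors passed the read filter. The Gata4 tandem site had 37 to 55 reads a library, which limits the precision of its shares.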

Other observations

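Chamber and region genes of the same families, and Isl1 of the partner factors, also set infarcted replicate 2 apart, beyond the factors described. Gata5, a GATA gene known from the endocardium and epicardium, had 61 counts in infarcted replicate 2 and 4, 4 and 5 counts in infarcted replicate 1 and uninjured replicates 1 and 2. Isl1, a gene of cardiac progenitors and the sinus node, had 8 counts there and 0 in the other 3 libraries. Irx1 and Irx2, Iroquois genes known from the ventricular septum, ran the other way. Irx1 was at 1.43 CPM in infarcted replicate 2 and at 5.84, 5.24 and 11.1 CPM in infarcted replicate 1 and uninjured replicates 1 and 2. Irx2 was at 1.38 CPM in infarcted replicate 2 and at 4.64, 4.76 and 9.54 CPM in the other libraries in the same order. Hey1 was at 5.17 CPM in infarcted replicate 2 and at 8.27 to 11 CPM elsewhere. These genes were picked for their values in 1 library, and none of the tested ones was called between the groups.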
